A study of Mus musculus with 4 samples.

Results

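The genes examined here encode the axoneme, the microtubule core of the sperm tail, and the factors that assemble it. They comprised 45 genes for axonemal dyneins, tektins, radial spokes, the central pair, the axonemal ruler and assembly factors, without Tekt2 and Dnali1, which lie near Azin2. The rule that defines them rests on function, and on position for the genes left out, and uses no measured value. The list was chosen with earlier results of these data known. Of the 45 genes, 38 had a probe set of their own on the array and 6 shared every probe set with another gene. Dnah7a had no probe set in the platform annotation. All other named genes served as the background, so that the table held 18820 genes with a value, the 38 included. Where a gene had several probe sets of its own, the one with the highest mean signal gave its value.

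Whole-testis RNA of adult mice was measured on 4 arrays of the Affymetrix Mouse Gene 1.1 ST type, 2 for Azin2 KO and 2 for Azin2 WT mice. AZIN2 binds antizymes, the proteins that inhibit ornithine decarboxylase, the first enzyme of polyamine synthesis. On each array was pooled RNA, from 3 testes by the labels and from 3 mice by the study's text, and the groups were compared to learn how loss of Azin2 alters gene expression in the testis, sperm motility being one of the functions the study examined. KO mice were homozygous for a βGeo cassette inserted in Azin2, in a C57BL/6 mixed background, and the study also describes this allele as hypomorphic. Mice of the study were 3 to 4 months old, and WT mice carried no cassette. Because the animals were pooled, the spread between the 2 arrays of a genotype is a spread between pools, and the p-values below measure no more than that. In whole testis, fewer cells of a type and less RNA per cell cannot be told apart.

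The axoneme is a ring of doublet microtubules around a central pair of single microtubules. Outer and inner dynein arms on the doublets, each built on large heavy chains that hydrolyse ATP, slide the doublets past each other, while radial spokes and the central pair time which arms are active. Dynein arms are folded and joined in the cytoplasm by dedicated assembly factors before they reach the flagellum. Some parts have a sperm and an airway version encoded by different genes. In the testis most of these genes are transcribed in late spermatocytes and spermatids, partly under transcription factors of the RFX family, which bind a promoter element called the X-box.

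The array detected the knockout. Azin2 had normalized log2 signals of 7.36 and 7.14 in the KO pools and 10.16 and 10.00 in the WT pools. The log2 difference, KO minus WT, was -2.83 (standard error 0.10, 95% interval -3.09 to -2.58, adjusted p = 0.0250 from limma), a fold of -7.12. Azin2 was the only gene past an adjusted p of 0.05, which made 0.00531% of the 18820 genes. This call was lost when either WT array was left out, with an adjusted p of 0.294 without WT replicate 1 and 0.232 without WT replicate 2, and likewise in the ordinary equal-variance test (adjusted p = 0.868) and when unnamed probe sets were tested too (adjusted p = 0.0707). Array medians ranged from 6.08 to 6.11. Markers of spermatids, the cells that build the flagellum, lay above the array median on all 4 arrays in all 18 genes with a value. Their median log2 difference was -0.02, with a range from -0.06 (Ldhc) to 0.04 (Izumo1). None had an unadjusted p under 0.05 by limma, against 3.95% of all genes. The KO pools were both below the WT pools in 7 of the 18 and both above them in 1, where 12.2% and 20.3% of all genes were so, and the part of this in the axoneme values was not tested.

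No axoneme gene passed any threshold by its brightest probe set on all 4 arrays. Of the 38 genes, 0 had an adjusted p under 0.05 and the lowest adjusted p was 0.9995 by limma. An unadjusted p under 0.05 was found in 0 of the 38, against 3.95% of all genes, and a fold of 1.5 at that p in 0 of the 38, against 0.0956% of all genes. The lowest unadjusted p was 0.108, that of Spef2. The log2 differences ran from -0.14 (Spef2) to 0.07 (Dnal1), with a median of -0.02, where the median of all genes was 0.01. There were 25 differences below 0 and 13 above, while over all genes 8166 were below 0 and 10654 above. This split depended on single pools. Leaving out WT replicate 2 put 23 of the 38 above 0, leaving out KO replicate 1 put 22 there, leaving out KO replicate 2 put 15 there and leaving out WT replicate 1 put 8 there. Centring the arrays on their medians put 16 above 0.

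The precision allowed limma to bound these differences. All 38 limma intervals at 95% lay within a fold of 1.5 in either direction, a log2 difference of 0.58. The same held for 97.96% of all genes. In limma the spread of each gene is drawn toward that of all named probe sets. Intervals of the ordinary equal-variance test are wider where a gene's own pools differ most, and are not given here, so the bounds hold for limma only. The widest bound was that of Dnah10, whose interval reached a fold of 1.29, and the narrowest was that of Tekt5, whose interval reached 1.09. These bounds are the end of each interval farther from 0, and the other end was closer to 0 in each gene. Both KO pools lay above both WT pools in 1 gene, Ccdc40, where 20.3% of all genes did so. They lay below both WT pools in 2 genes, Dnai1 and Spef2, where 12.2% of all genes did so. In the other 35 genes the pools of the genotypes overlapped.

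**Figure D1:**
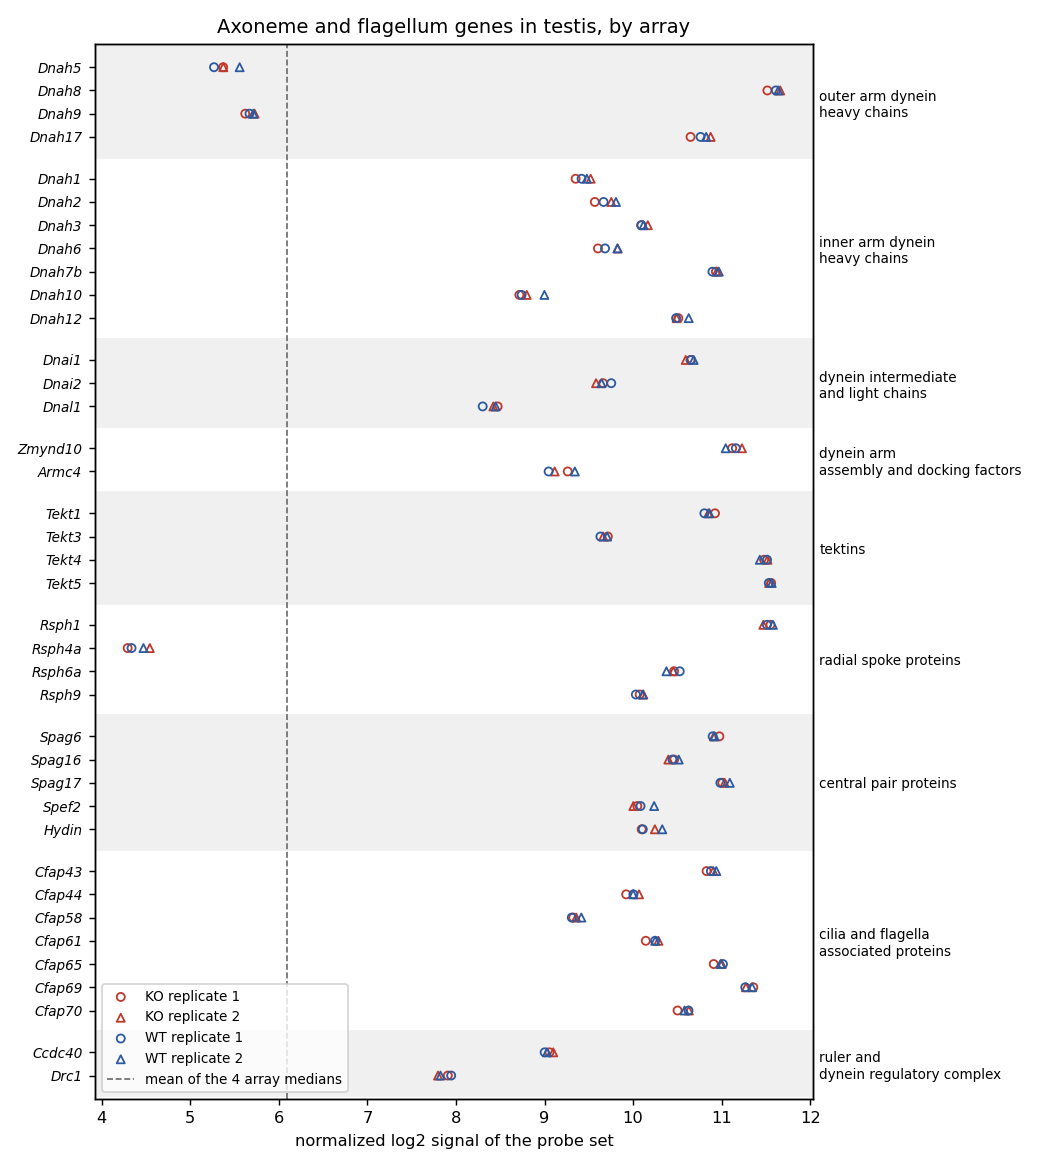
Normalized log2 signal of the probe set of each of the 38 axoneme genes (horizontal axis) on each array, by class. Circles are replicate 1 and triangles replicate 2, in red for KO and blue for WT, and the dashed line is the mean of the 4 array medians. Dnah5, Dnah9 and Rsph4a lie left of the line on all 4 arrays and the other 35 right of it.

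**Figure D2:**
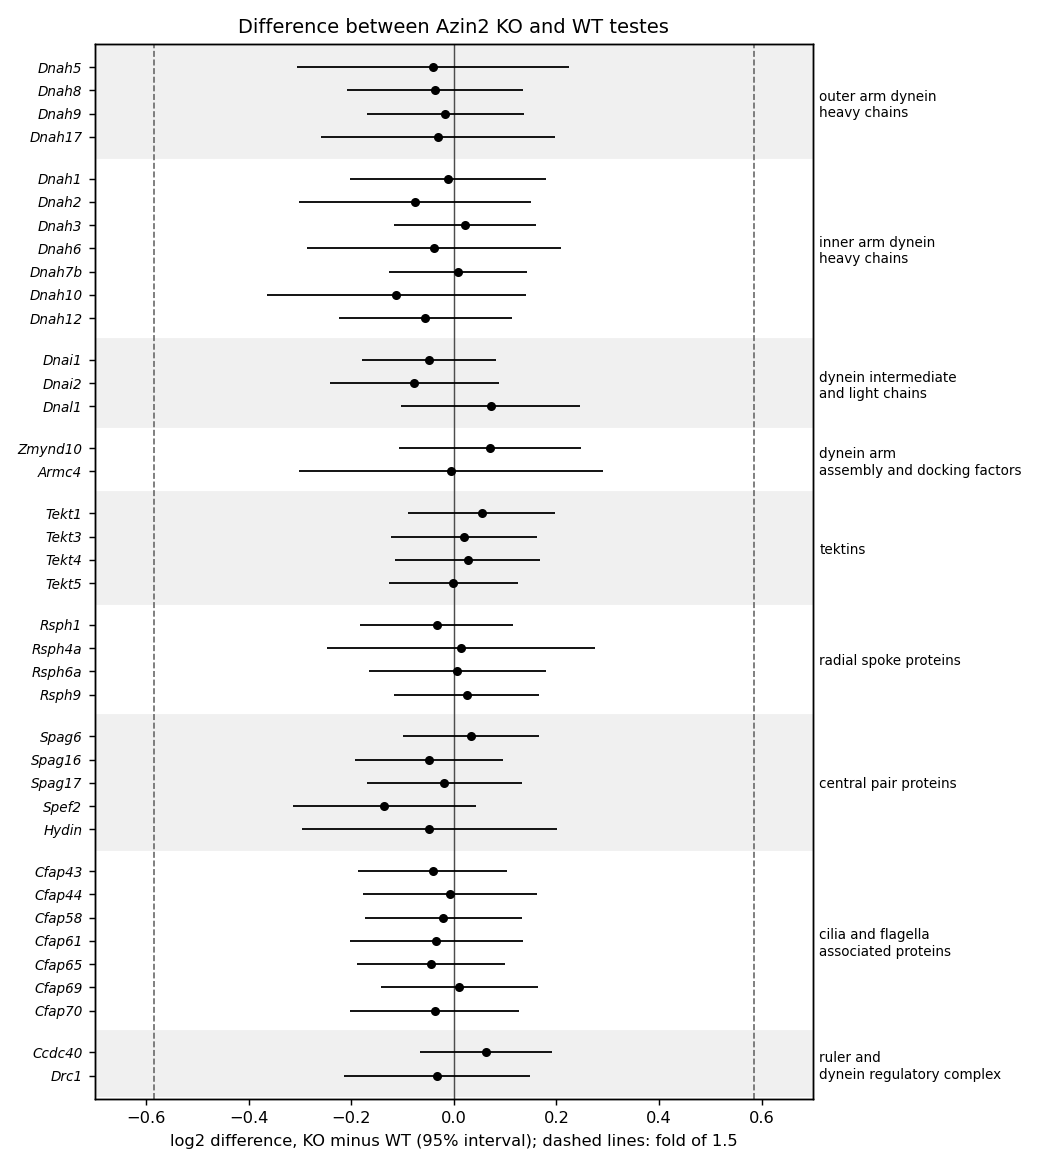
Log2 difference, KO minus WT, of each of the 38 genes (points) with its 95% interval from limma (lines), by class. The dashed lines mark a fold of 1.5, and every interval includes 0 and stays between them.

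In 35 of the 38 genes the signal exceeded the array median on all 4 arrays, and in 3 it fell short of it on all 4. Over all genes, 11211 of 18820 exceeded it on all 4 arrays and 7063 fell short of it on all 4, the medians being those of all probe sets, unnamed ones included. The 3 were Dnah5 and Dnah9, outer arm heavy chains known from airway cilia, and Rsph4a, the spoke head protein of airway cilia. Rsph4a gave 4.29 and 4.54 in the KO pools and 4.34 and 4.47 in the WT pools. Their counterparts known from the sperm tail, Dnah8, Dnah17 and Rsph6a, were all among the 35. Signal strength depends on the probes, so these values place each gene against its array and do not rank the genes by abundance. Markers of multiciliated and efferent duct cells were below the array median on all 4 arrays in 9 of the 14 with a value.

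The promoters of these genes were read for X-box letters, because axoneme genes are known as targets of RFX factors. RefSeq windows of 300 bases, from 250 before to 50 after the start (GRCm38.p6), were held for 39 of the 45 genes, in 40 windows. The hexamer GTTGCC, or GGCAAC on the other strand, stood in 15 of the 40 windows (37.5%), against 12.5% of the 32851 windows of all genes. A stricter gapped form, GTTNCC followed after at most 3 bases by GGNAAC, stood in 0 of the 40 and in 0.804% of all windows. A looser gapped form, GTTGC followed after at most 4 bases by GCAAC, was searched after the windows had been read. It stood in 7 of the 40 windows (17.5%) against 0.447% of all windows. Because this form was chosen with these windows in view, that contrast is a description and carries no weight as a test. Both gapped forms read the same on either strand. The 7 genes were Dnah6, Dnah7a, Dnah7b, Dnai2, Hydin, Cfap44 and Tekt4, and in 6 of them, all except Dnah6, the hexamer was also present, in part on the same bases. Median GC content was 54.5% in the 40 windows and 52.7% in all windows. These matches describe letters in a window and show neither binding nor use.

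The 7 windows with the looser gapped form are shown because they carry the fullest X-box letters among these genes, and that of Spef2 because Spef2 had the largest difference. Each reads 5′ to 3′ on the gene's strand in GRCm38.p6, and capitals mark the hexamer and the gapped form. The windows lie at Dnah6 chr6:73221582-73221881 on the minus strand, Dnah7a chr1:53706735-53707034 on the minus strand, Dnah7b chr1:46066603-46066902 on the plus strand, Dnai2 chr11:114727169-114727468 on the plus strand, Tekt4 chr17:25471340-25471639 on the plus strand, Hydin chr8:110266727-110267026 on the plus strand, Cfap44 chr16:44394549-44394848 on the plus strand and Spef2 chr15:9748819-9749118 on the minus strand.
Dnah6: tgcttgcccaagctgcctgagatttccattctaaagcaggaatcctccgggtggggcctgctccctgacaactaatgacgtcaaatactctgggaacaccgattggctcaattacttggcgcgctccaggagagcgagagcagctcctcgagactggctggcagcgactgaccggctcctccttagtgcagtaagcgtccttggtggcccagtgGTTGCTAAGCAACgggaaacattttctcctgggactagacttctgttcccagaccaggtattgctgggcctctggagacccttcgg
Dnah7a: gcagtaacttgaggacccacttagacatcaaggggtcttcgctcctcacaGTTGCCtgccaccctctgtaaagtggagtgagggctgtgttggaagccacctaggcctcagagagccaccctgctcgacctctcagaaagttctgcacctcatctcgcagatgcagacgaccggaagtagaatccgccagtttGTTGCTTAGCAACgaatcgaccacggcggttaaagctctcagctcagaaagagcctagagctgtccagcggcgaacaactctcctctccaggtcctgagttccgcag
Dnah7b: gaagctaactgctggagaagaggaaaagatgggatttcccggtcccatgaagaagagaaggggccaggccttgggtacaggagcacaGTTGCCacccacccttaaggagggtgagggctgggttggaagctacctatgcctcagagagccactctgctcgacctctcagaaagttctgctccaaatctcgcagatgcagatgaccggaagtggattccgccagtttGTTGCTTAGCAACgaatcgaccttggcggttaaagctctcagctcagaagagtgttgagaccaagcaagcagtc
Dnai2: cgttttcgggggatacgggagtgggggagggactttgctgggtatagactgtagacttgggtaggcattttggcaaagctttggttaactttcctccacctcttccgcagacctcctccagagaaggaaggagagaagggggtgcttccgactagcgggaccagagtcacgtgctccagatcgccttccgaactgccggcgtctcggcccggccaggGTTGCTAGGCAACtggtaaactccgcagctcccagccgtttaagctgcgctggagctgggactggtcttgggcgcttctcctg
Tekt4: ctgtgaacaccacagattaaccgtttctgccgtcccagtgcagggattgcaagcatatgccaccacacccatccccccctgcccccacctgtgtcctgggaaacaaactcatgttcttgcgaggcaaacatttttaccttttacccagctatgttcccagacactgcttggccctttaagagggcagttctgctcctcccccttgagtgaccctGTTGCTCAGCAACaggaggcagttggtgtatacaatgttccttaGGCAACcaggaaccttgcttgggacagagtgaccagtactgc
Hydin: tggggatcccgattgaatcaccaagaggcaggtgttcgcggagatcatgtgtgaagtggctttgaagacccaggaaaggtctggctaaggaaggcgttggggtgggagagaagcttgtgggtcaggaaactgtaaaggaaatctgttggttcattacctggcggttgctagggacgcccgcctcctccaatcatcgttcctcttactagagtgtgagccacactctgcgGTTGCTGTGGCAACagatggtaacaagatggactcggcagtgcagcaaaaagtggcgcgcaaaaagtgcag
Cfap44: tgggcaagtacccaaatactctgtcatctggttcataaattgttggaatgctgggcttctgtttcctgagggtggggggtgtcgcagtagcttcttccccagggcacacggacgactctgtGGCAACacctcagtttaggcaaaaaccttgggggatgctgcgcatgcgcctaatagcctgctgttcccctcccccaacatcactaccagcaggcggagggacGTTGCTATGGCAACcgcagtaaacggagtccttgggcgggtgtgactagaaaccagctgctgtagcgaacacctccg
Spef2: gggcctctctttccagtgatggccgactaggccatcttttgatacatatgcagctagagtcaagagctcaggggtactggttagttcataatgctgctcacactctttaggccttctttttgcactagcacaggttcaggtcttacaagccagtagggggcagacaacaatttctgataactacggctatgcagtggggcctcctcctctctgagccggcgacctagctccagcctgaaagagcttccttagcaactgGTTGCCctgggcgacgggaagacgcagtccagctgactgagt

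In 6 of the 7 genes the first base of the gapped form lay between -36 and -21 from the start, and in Dnah7a it lay at -57. The windows of Dnah7a and Dnah7b, which encode near-identical inner arm heavy chains, share a run of 33 bases. Of the 19 hexamers, 10 began within 100 bases before the start and 4 after it. No gene with these letters passed a threshold between genotypes by its brightest probe set on all 4 arrays. Dnai2 was the lowest of the 6 with a value and the gapped form, at a log2 difference of -0.08, and Tekt4 the highest, at 0.03.

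**Figure D3:**
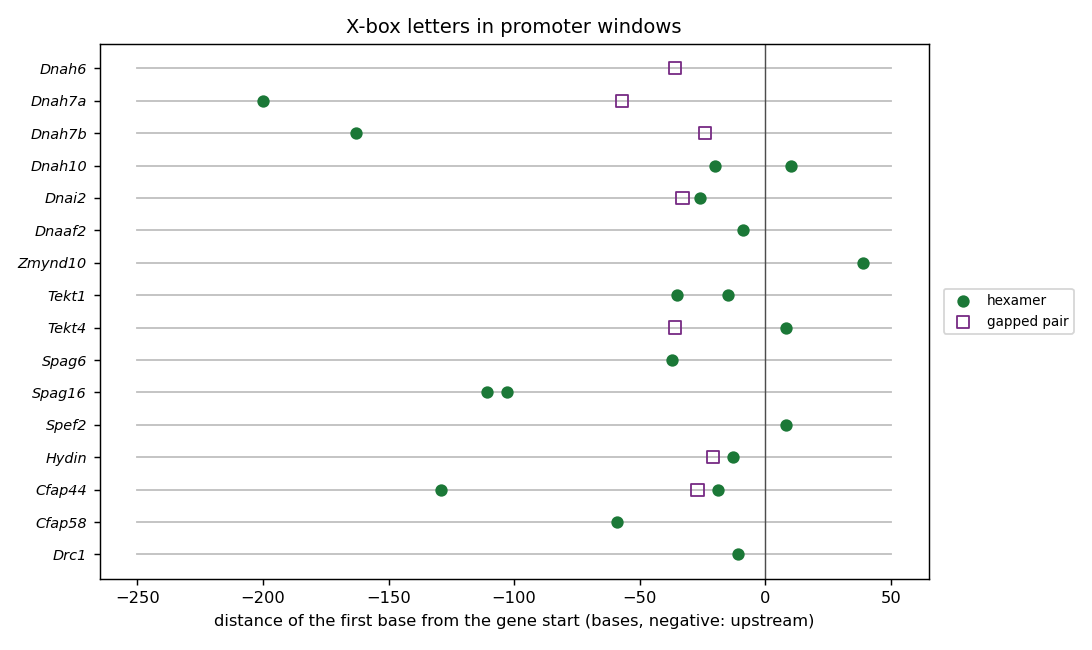
Distance of the first base of each hexamer (filled circles) and of each looser gapped form (open squares) from the gene start, in bases, for the 16 axoneme genes that hold either. Grey lines are the 300-base windows, and most marks lie close before the start.

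Among outer arm heavy chains, 4 of 5 genes had a value and the median log2 difference was -0.03. Dnah5 had the largest, with 5.37 and 5.37 in the KO pools, 5.27 and 5.56 in the WT pools and a difference of -0.04 (95% interval -0.31 to 0.23). The KO pools lay between the WT pools. Dnah8 gave 11.52 and 11.66 in KO and 11.61 and 11.64 in WT, a difference of -0.04 (-0.21 to 0.13). Dnah17 gave 10.65 and 10.88 in KO and 10.76 and 10.83 in WT, a difference of -0.03 (-0.26 to 0.20). In both sperm genes the WT pools lay between the KO pools. Dnah9 had a difference of -0.02, and no gene of the class was above 0. Dnah11, whose protein serves in airway cilia, shared its probe sets with Cdca7l, and these gave -0.09 and 0.05.

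Inner arm heavy chains had a value in 7 of 8 genes, with a median of -0.04. Dnah10, a heavy chain of the double-headed inner arm, gave 8.72 and 8.80 in the KO pools and 8.74 and 8.999 in the WT pools. Its difference was -0.11 (95% interval -0.36 to 0.14), with WT replicate 2 above the other 3 pools. Dnah2, the partner heavy chain in that arm, had a difference of -0.08 (-0.30 to 0.15). Dnah3, a chain of the single-headed inner arms, had the largest difference above 0, with 10.09 and 10.17 in KO, 10.10 and 10.12 in WT and a difference of 0.02 (-0.12 to 0.16). Dnah6 gave 9.60 and 9.83 in KO and 9.68 and 9.82 in WT, a difference of -0.04 (-0.29 to 0.21). In both genes the WT pools lay between the KO pools. Dnah7b gave 10.94 and 10.94 in KO and 10.90 and 10.97 in WT, a difference of 0.01 (-0.13 to 0.14). Since Dnah7a has no probe set here and the genes are near-identical, whether the probes of Dnah7b also read Dnah7a was not tested. Dnah1 and Dnah12 had differences of -0.01 and -0.06.

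The heavy chains varied together between pools of a genotype. In 10 of the 11 heavy chains with a value, replicate 2 exceeded replicate 1 in both genotypes, against 8 of the 27 other axoneme genes and 22.5% of all genes. The median gap between replicates was 0.11 in KO and 0.07 in WT. Taken as the mean deviation of the 11 genes from their own means, KO replicate 1 stood at -0.07, WT replicate 1 at -0.04, KO replicate 2 at 0.04 and WT replicate 2 at 0.07. Both replicates 2 thus stood above both replicates 1, and within each replicate number KO stood below WT. Among the markers, both replicates 2 were the higher in 4 of 18 spermatid genes and 3 of 20 spermatocyte genes. The labels do not say what a replicate number stands for, over named probe sets the deviations of same-numbered pools were not positively correlated (r = -0.08), and the cause of the shared pattern was not tested.

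**Figure D4:**
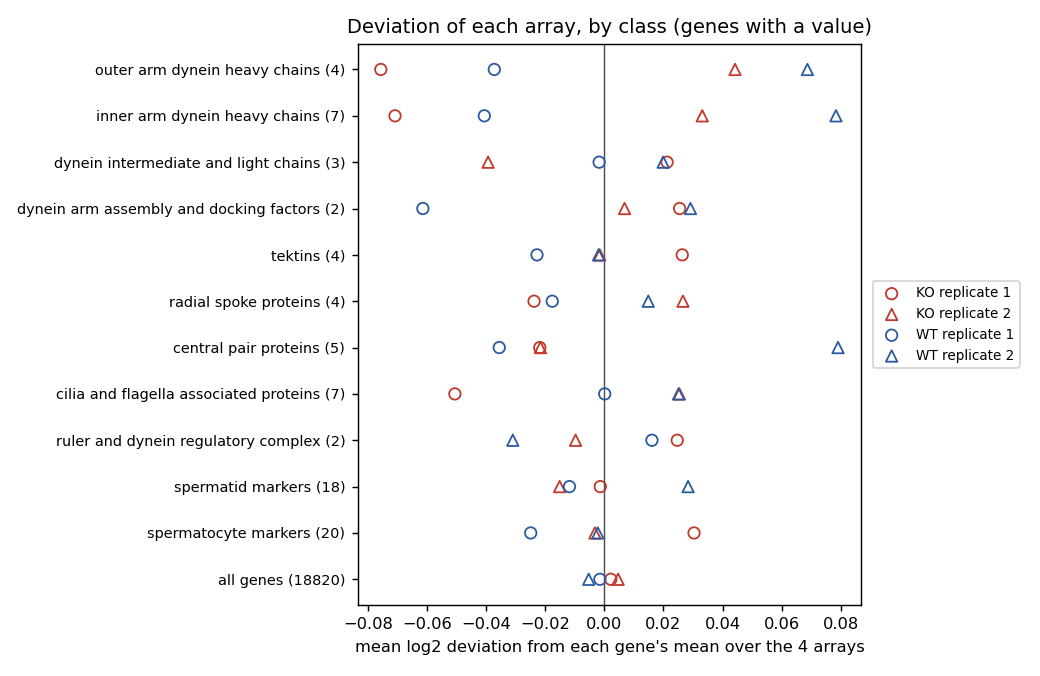
Mean log2 deviation of each array from the gene means (horizontal axis), for the 9 classes, 2 marker lists and all genes, with the number of genes in brackets. Circles are replicate 1 and triangles replicate 2, in red for KO and blue for WT. In both heavy chain classes the triangles lie right of the circles, and all genes stay near 0.

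Dynein intermediate and light chains all had a value. Dnai2, an intermediate chain of the outer arm, gave 9.66 and 9.58 in KO and 9.75 and 9.64 in WT, a difference of -0.08 (-0.24 to 0.09). Its partner Dnai1 gave 10.65 and 10.59 in KO and 10.66 and 10.68 in WT, a difference of -0.05 (-0.18 to 0.08). Dnai1 separated the genotypes, with KO lower, and its interval included 0. Dnai1 is the only one of the 45 genes on chromosome 4, which holds Azin2, and lies 87.4 Mb from it. Dnal1, the outer arm light chain that binds a heavy chain motor domain, had the largest difference above 0 of all 38 genes. Its values were 8.47 and 8.42 in KO and 8.30 and 8.45 in WT, a difference of 0.07 (-0.10 to 0.25), with WT replicate 1 below the other pools.

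Of the 4 dynein arm assembly and docking factors, 2 had a value. Zmynd10, a cytoplasmic assembly factor, gave 11.12 and 11.23 in KO and 11.16 and 11.05 in WT, a difference of 0.07 (-0.11 to 0.25). Armc4, which helps dock outer arms on the doublets, gave 9.26 and 9.11 in KO and 9.05 and 9.34 in WT, a difference of -0.01 (-0.30 to 0.29). In Armc4 the KO pools lay between the WT pools. Dnaaf1 and Dnaaf2, both cytoplasmic assembly factors, had probe sets shared with other genes and no value of their own. Of the 13 shared probe sets of the 45 genes, 1 had an unadjusted p under 0.05, against 4.1% of the 23099 named probe sets. It was shared by Dnaaf2 and 9330151L19Rik, at 7.48 and 7.55 in KO and 7.69 and 7.75 in WT (difference -0.21, unadjusted p = 0.0135 by limma). The other 3 probe sets of Dnaaf2, shared with 9330151L19Rik or Rpl36al, had differences of 0.06, so that the probe sets did not point the same way and none can be assigned to Dnaaf2 alone.

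The 4 tektins, filament proteins that line the doublets, had differences close to 0, with a median of 0.02. Tekt1 had the largest, with 10.92 and 10.85 in KO, 10.80 and 10.86 in WT and a difference of 0.05 (-0.09 to 0.20). Tekt5, which is found in the sperm tail, gave 11.56 and 11.54 in KO and 11.53 and 11.57 in WT, a difference of -0.0013 (-0.13 to 0.12). This was the most tightly bounded gene of the 38. Tekt3 and Tekt4 had differences of 0.02 and 0.03.

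Radial spoke genes had a value in 4 of 5, with a median of 0.01. Rsph9, a spoke head protein, gave 10.07 and 10.12 in KO and 10.03 and 10.11 in WT, a difference of 0.02 (-0.12 to 0.17). Rsph1, another spoke head protein, gave 11.55 and 11.47 in KO and 11.51 and 11.58 in WT, a difference of -0.03 (-0.18 to 0.12). The pools overlapped in both, and the differences of Rsph6a and Rsph4a were both 0.01. Rsph3a, a spoke stalk protein, shared both its probe sets with its near-identical copy Rsph3b. These gave 11.59 and 11.56 in KO against 11.61 and 11.63 in WT (difference -0.04), and 11.63 and 11.58 in KO against 11.61 and 11.64 in WT (difference -0.02).

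Central pair proteins held the largest difference of all, that of Spef2, whose protein is needed for sperm tail formation. Spef2 (chr15:9578193-9748868, minus strand, GRCm38.p6) gave 10.05 and 10.00 in the KO pools and 10.08 and 10.24 in the WT pools. Its difference was -0.14 (95% interval -0.31 to 0.04, unadjusted p = 0.108), so that the KO signal was 91.0% of the WT signal with an interval from 80.4% to 103.0%. The KO pools were the lowest of the 4, and WT replicate 2 stood apart from the other 3. Without WT replicate 2 the difference was -0.06, and without WT replicate 1 it was -0.21, which were the extremes over all settings tried. Spag6, whose protein bridges the central microtubules, gave 10.97 and 10.91 in KO and 10.90 and 10.92 in WT, a difference of 0.03 (-0.10 to 0.17). Spag16, Spag17 and Hydin, other central apparatus proteins, had differences of -0.05, -0.02 and -0.05, and the class median was -0.05. Spef1, a microtubule-binding protein of the central pair, shared its probe set with Cdc25b, which gave 0.04.

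Cilia and flagella associated proteins all had a value, and the median difference was -0.03. Cfap65 had the largest, with 10.91 and 11.001 in KO, 11.01 and 10.99 in WT and a difference of -0.05 (-0.19 to 0.10). Cfap69 was the only gene of the class above 0, at 11.36 and 11.27 in KO and 11.27 and 11.34 in WT, a difference of 0.01 (-0.14 to 0.16). Neither separated the genotypes. Cfap43, which tethers an inner arm, gave 10.83 and 10.91 in KO and 10.88 and 10.94 in WT, a difference of -0.04 (-0.19 to 0.10). Cfap61, a spoke-associated protein, gave 10.14 and 10.29 in KO and 10.25 and 10.25 in WT, a difference of -0.03 (-0.20 to 0.13). In Cfap61 both WT pools lay between the KO pools. Cfap44, Cfap58 and Cfap70 had differences of -0.01, -0.02 and -0.04.

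Ccdc40, which with Ccdc39 forms the ruler that sets the repeat of the axoneme, gave 9.06 and 9.10 in KO and 9.001 and 9.03 in WT. The difference was 0.06 (-0.07 to 0.19, unadjusted p = 0.264), and this was the one gene with both KO pools above both WT pools. Ccdc39 shared its probe set with Ttc14, which gave -0.03, so the partners could not be compared. Drc1, a core protein of the nexin-dynein regulatory complex that links neighbouring doublets, gave 7.91 and 7.80 in KO and 7.95 and 7.82 in WT, a difference of -0.03 (-0.21 to 0.15).

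Probe sets other than the brightest added detail for 10 genes, which had 2 to 10 each. In all, 67 probe sets belonged to single axoneme genes, 54 with a difference below 0 and 13 above. Genes with several probe sets count more than once in this split, and by gene 8166 of all 18820 were below 0. Of the 67, 4 (5.97%) had an unadjusted p under 0.05 by limma, against 4.1% of the 23099 named probe sets. All 4 were from Spef2 and Dnah10. Spef2 had 10 probe sets, all 10 with both KO pools below both WT pools and differences from -0.21 to -0.09. By brightest probe set, 12.2% of all genes had both KO pools below both WT pools, and no such share was taken over probe sets. In 3 of the 10 the unadjusted p was under 0.05, the lowest being 0.0211, at 8.77 and 8.81 in KO and 8.94 and 9.06 in WT (difference -0.21, 95% interval -0.36 to -0.05). The adjusted p of all 10 was 0.9995 by limma. Probe sets of 1 gene read the same RNA on the same 4 arrays, so their accord measures the gene again and does not add pools.

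Dnah10 (chr5:124725085-124834308, GRCm38.p6) had 5 probe sets, all 5 with differences below 0, from -0.35 to -0.02. The one at -0.35 (95% interval -0.55 to -0.15, unadjusted p = 0.00680, adjusted p = 0.9995 by limma) gave 7.11 and 7.22 in KO and 7.43 and 7.59 in WT, with no overlap. The brightest probe set, at -0.11, overlapped between genotypes. The sets thus disagreed in size by more than their standard errors of 0.06 to 0.10. Cfap43 had 5 of 5 below 0, from -0.10 to -0.04, Dnah6 3 of 3, from -0.16 to -0.04, and Dnah3 4 of 5, where the brightest, at 0.02, was the exception. In Dnah7b, 2 of 3 were below 0, and in Dnah8, Dnah17, Armc4 and Cfap61 both were.

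**Figure D5:**
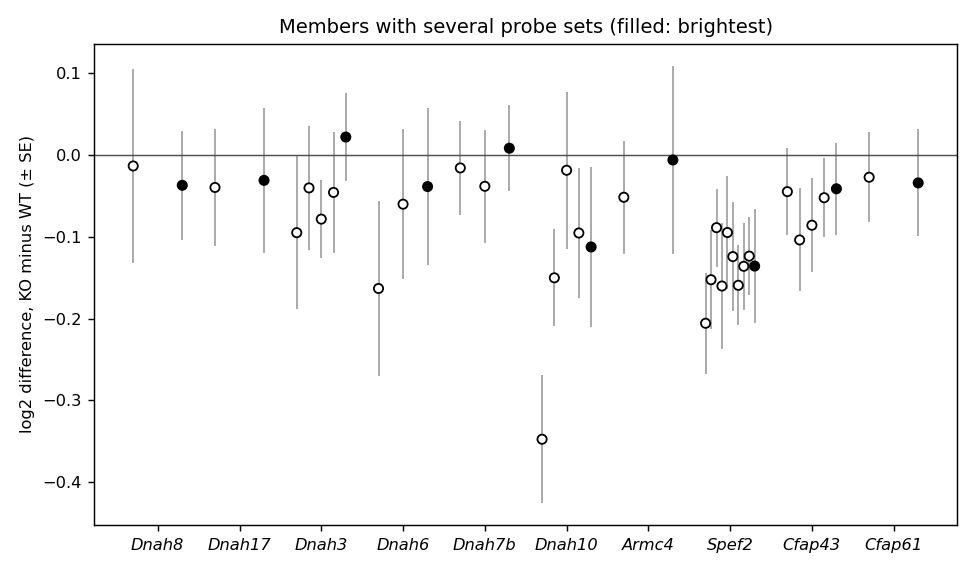
Log2 difference, KO minus WT, of every probe set of the 10 genes with more than 1 (points, with bars of 1 standard error from limma). Filled points are the brightest probe set of each gene. All 10 points of Spef2 and all 5 of Dnah10 lie below 0.

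No axoneme gene was past an unadjusted p of 0.05 on all 4 arrays, but leaving out WT replicate 1 gave 3, all lower in KO. These were Dnah10 (-0.24, unadjusted p = 0.0311), Spef2 (-0.21, unadjusted p = 0.0356) and Dnah5 (-0.19, unadjusted p = 0.0477), with an adjusted p of 0.920 from limma. In that setting 5.09% of all genes passed the same threshold. Without WT replicate 2 the differences of Dnah10 and Dnah5 were 0.02 and 0.10, on the other side of 0. No other array left out, and no other setting tried, brought any of the 38 past an unadjusted p of 0.05.

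Other genes of the flagellum were described from lists chosen by function. Among 53 other axoneme and arm assembly genes with a value, 3 passed an unadjusted p of 0.05, with 1 above and 2 below 0, where 3.95% of all genes passed it, and the median difference was -0.01. Drc12 (Ccdc153 in the annotation), a regulatory complex gene, had a difference of 0.21 (unadjusted p = 0.0262 by limma). It gave 6.20 and 6.20 in KO against 5.92 and 6.06 in WT, and exceeded the array median on only 2 of the 4 arrays. Rsph14 had the next largest above 0, at 0.12. Cfap47 was at -0.23 (unadjusted p = 0.0276), with 7.47 and 7.30 in KO against 7.63 and 7.60 in WT. Cfap74 was at -0.15 (unadjusted p = 0.0640), and Drc10 (Iqcd), the other gene past that p, at -0.15 (unadjusted p = 0.0421). None of these had an adjusted p under 0.05 by limma.

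Intraflagellar transport carries axoneme parts to the growing tip, and the manchette is the microtubule skirt that shapes the spermatid head. Of 47 such genes with a value, 2 had an unadjusted p under 0.05, against 3.95% of all genes, and the median difference was -0.02. Hook1, a manchette linker protein, was at -0.13 (unadjusted p = 0.0468), with 11.36 and 11.34 in KO against 11.46 and 11.49 in WT. Ift27, a small GTPase of the transport complex, was at 0.14 (unadjusted p = 0.0434), with 8.58 and 8.63 in KO against 8.49 and 8.43 in WT. In both, the pools of the genotypes did not overlap. Ttll1, a tubulin glutamylase subunit, had the largest difference below 0, at -0.15, with KO replicate 2 alone low at 10.25, and Ift70a1 (Ttc30a1) the largest above 0, at 0.18, and neither passed.

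Of 14 transcription factors of ciliated cells and spermatids, 0 had an unadjusted p under 0.05, against 3.95% of all genes. The median difference was 0.0039. Rfx2, the RFX factor known to be needed in spermatids, gave 11.05 and 11.02 in KO and 10.95 and 11.02 in WT, a difference of 0.05. Rfx3 was at -0.09, Mcidas, a regulator of multiciliated cells, at -0.07, and Tbpl1, a testis promoter factor, at 0.06. The intervals of all 4 included 0.

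Cell types that could move with these values were read from marker lists. For the counts below, 3.95% of all genes had an unadjusted p under 0.05 by limma. Spermatocyte markers had a median difference of 0.01 (20 genes, from -0.04 in Rec8 to 0.17 in Tex101, 1 with an unadjusted p under 0.05) and spermatogonia markers 0.04 (14 genes, from -0.16 in Kit to 0.23 in Lin28a, 1 past that p). Sertoli cell markers had 0.06 (15 genes, from -0.03 in Trf to 0.21 in Amh, none past it). Leydig cell markers were below 0 in 9 of 9, where 8166 of all 18820 genes were so. Both KO pools were below both WT pools in 1 of the 9, against 12.2% of all genes, and in 8 the pools overlapped. The mean deviation of these markers was -0.26 in KO replicate 1 and 0.08 in KO replicate 2. In WT replicates 1 and 2 it was 0.13 and 0.05, so that KO replicate 2 stood above WT replicate 2. The median difference of the Leydig markers was -0.08, from -1.02 in Sult1e1, the 1 gene past an unadjusted p of 0.05, to -0.02 in Cyp17a1. Macrophage markers had a median of -0.15 (12 genes, from -1.36 in Vsig4 to 0.07 in Cx3cr1), with Vsig4 and Lyz2 past it. Multiciliated and efferent duct markers had 0.0039 (14 genes, from -0.29 in Tppp3 to 0.14 in Slc9a3, both past it) and epididymis markers -0.03 (13 genes, from -0.26 in Lcn2 to 0.20 in Defb48, the latter past it). No marker had an adjusted p under 0.05 by limma, and the part of these cells in the values of the axoneme genes was not tested.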

How the data were processed

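The authors hybridized testis RNA to Affymetrix Mouse Gene 1.1 ST arrays and deposited log2 signals per probe set. The submitters' processing notes name RMA, which corrects background, normalizes arrays to a common distribution and summarizes probes, and Partek 6.13.1224. The annotation build is not given in the sources used here. The labels name a cRNA kit for 3′ labelling, whereas the paper describes fragmented cDNA, and the effect on signals along a transcript was not tested.

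Of 35556 probe sets, 23099 were paired with genes in the platform annotation (1881 with several genes) and 12457 were unnamed here. Symbols were matched to RefSeq (GRCm38.p6), 2 of the axoneme genes (Dnai1 and Dnai2) through synonyms. KO and WT were compared on the deposited log2 values with limma 3.58.1 (lmFit and eBayes, R 4.3.3) over all 23099 named probe sets, with no filter, by Benjamini-Hochberg adjustment. The prior had 2.96 degrees of freedom. A gene took the value of its brightest own probe set. The number of arrays limits the precision. Promoter windows were searched in Python 3.11.15, and figures drawn with matplotlib 3.10.9.

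The axoneme genes, the classes and the other gene lists were chosen with earlier results of these data known. Genes named with pool values were the largest difference in each direction of each class, genes with several probe sets or a near-identical copy, Dnah7a, Dnah7b, Rsph3a and Spag6 among them, and Azin2. In other lists of the pathway the 2 largest differences in each direction were named, and in marker lists the largest in each. Genes that passed an unadjusted p of 0.05 in these lists, Rsph4a and the remaining axoneme genes were named beyond that rule. Alternative settings were eBayes with an intensity trend, its robust form, the methods' ordinary equal-variance test, quantile normalization, centring, a filter on dim probe sets, all probe sets, a replicate block, each array left out, the mean of a gene's probe sets and folds of 1.2 and 2.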

Additional observations from a re-analysis of the deposited data

How the results depend on the processing

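The counts of axoneme genes past an adjusted p of 0.05, and past a fold of 1.5 at an unadjusted p of 0.05, were 0 under all alternatives, and with arrays left out both ranged from 0 to 0. The count past an unadjusted p of 0.05 ranged from 0 to 3 with 1 array left out, the 3 arising without WT replicate 1, and was 0 in every other setting. The median log2 difference of the 38 genes ranged from -0.037 (without WT replicate 1) to 0.015 (without WT replicate 2). Between 24 (WT replicate 2 left out) and 32 (KO replicate 2 left out) of the 38 genes kept their sign, against 35 after centring and 37 after quantile normalization. A lone array is taken by limma to vary like the others.

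The Azin2 difference ranged from -2.94 to -2.72 with 1 array left out and was -2.83 in the ordinary equal-variance test (adjusted p = 0.868) and over every probe set (adjusted p = 0.0707), so that neither passed. Without WT replicate 1 its adjusted p was 0.294 and without WT replicate 2 it was 0.232, by limma.

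The labels do not say that replicate numbers pair pools, and over named probe sets the deviations of same-numbered pools correlated at -0.08. With the replicate number as a block, 0 axoneme genes had an unadjusted p under 0.05, the median difference was -0.02 and Azin2 was at -2.83. With 2 pools per genotype, the farther end of the 95% interval from limma lay at a fold of 1.09 to 1.29, by gene.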
